A study of Mus musculus with 16 samples.

Results

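The TNF superfamily consists of ligands, most of them trimers held on the cell surface, and of receptors that carry messages for survival, death or activation between immune cells. Ligand binding recruits TRAF adaptors to a receptor, which switches on the canonical NF-kB pathway through the IKK complex, the noncanonical pathway through the kinase NIK, or both, while receptors with a death domain can start caspases instead. On CD4+ T cells the family includes costimulatory receptors such as CD27 and OX40 and the ligands by which T cells instruct other cells, such as CD40 ligand, RANKL and the lymphotoxins. The 35 genes described here, 15 ligands and 20 receptors, were taken by name, out of 20660 genes with a probe on the array. They were chosen with earlier results of these data known. Of the 35 genes, 34 had a probe, 33 entered the test with 14685 genes in all, and 26 were well above background on all 16 arrays. No probe was matched to Tnfsf13 (APRIL), and the probe of Tnfrsf8 (CD30) was not well above background on any array.

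Transcripts were measured in CD4+ cells of mouse spleen, purified with an isolation kit and then by flow sorting, on 16 one-colour Agilent arrays. All mice were males of 8 to 10 weeks whose Cre recombinase was driven by the CD4 promoter, which is active in developing T cells. The groups were NEMO knockout (NEMOfl/f in the labels, 2 arrays with nephritis and 2 without), IKK2 knockout (IKK2fl/fl, 3 and 3) and Cre controls (CD4cre, 3 and 3), so the controls carry Cre too. Nephritis means nephrotoxic serum nephritis, a glomerulonephritis induced by sheep serum against kidney antigens, given at 2.5 mg per g of body weight, with organs taken on day 10. NEMO is the regulatory subunit and IKK2 a catalytic subunit of the IKK complex. The study's title asks how NEMO and IKK2 differ with regard to the noncanonical pathway in this nephritis. The labels do not tell whether replicate arrays stand for different mice, and p-values therefore describe the spread among these arrays, part of which may be technical.

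Levels are log2 intensities relative to the 75th percentile of the same array, which is 0, and are comparable between arrays for 1 gene but not between genes. Arrays within a group correlated at 0.971 to 0.993 over the tested genes. The NEMO arrays lay between 71.8 and 90.2 on the first principal component, against -51.9 to 7.87 for all other arrays, and the nephritis Cre replicate 2 was separated from the rest along the third, at -67.4. All 4 NEMO arrays were on slide 3 and no other array was, so NEMO knockout and slide cannot be told apart. Slide 1 held the Cre and IKK2 arrays with nephritis and IKK2 replicates 1 and 2 without it, and slide 2 held the untreated Cre arrays and IKK2 replicate 3. Ikbkb, which encodes IKK2, read 3.31, 2.88 and 2.99 in untreated IKK2 knockout arrays, against 3.29, 3.31 and 3.30 in Cre arrays (limma, Benjamini-Hochberg adjusted p = 0.162). With nephritis it read 3.02, 2.95 and 2.91 in IKK2 knockout arrays, against 3.27, 3.45 and 3.18 in Cre arrays (limma adjusted p = 0.134). Ikbkg, which encodes NEMO, read -0.94 and -0.74 in untreated NEMO knockout arrays, against -0.85, -0.74 and -0.52 in Cre arrays (limma adjusted p = 0.337), and -0.71 and -0.59 in NEMO knockout arrays with nephritis, against -0.26, -0.40 and -0.26 in Cre arrays (limma adjusted p = 0.0196). Each gene also differed in the other knockout. Ikbkb differed by -0.35 without and -0.48 with nephritis between NEMO knockout and Cre cells (limma adjusted p = 0.037 and 0.0065). Between IKK2 knockout and Cre cells Ikbkg differed by 0.68 without nephritis (limma adjusted p = 0.0015) and by -0.10 with it, which did not pass (adjusted p = 0.60). Where the probes lie relative to the floxed exons is not known here, so these levels are no check of the deletion.

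Of the T cell markers, 14 of 14 were measured, with Cd4 and Cd3e well above background on every array. Their summed level was 1255 to 1348 on NEMO knockout arrays, below every IKK2 knockout array (1410 to 1572) and every Cre array (1424 to 1623). Of the 14, 5 were lower and 0 higher in untreated NEMO knockout than in Cre cells, and 6 and 0 with nephritis (limma adjusted p under 0.05). Of all 14685 genes, 43% passed without and 48.3% with nephritis, 22% and 29.6% as lower. Markers of other cells were present as well. Summed over 14 B cell markers, the level relative to the 75th percentile was 35.3 to 35.4 in NEMO knockout arrays with nephritis and 25.2 to 26.7 without it. It was 21.4 to 32.8 in IKK2 knockout arrays with nephritis and 26.02 to 31.0 without it, and 13.5 to 21.3 in Cre arrays with nephritis and 7.35 to 8.58 without it. Untreated Cre arrays thus had the lowest B cell signal, and no array of another group reached down to theirs. Ms4a1, which encodes the B cell surface protein CD20, was well above background on all 16 arrays. In bulk RNA, fewer cells of a type and less RNA per cell cannot be told apart.

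Ltb, Tnf and Lta lie next to each other on mouse chromosome 17, with no protein-coding gene between them. In untreated NEMO knockout cells Tnf was higher and Lta and Ltb were lower, but the direction of Ltb depended on the scaling, as given below. With nephritis the difference of Lta did not pass. The upstream sequences of these genes are shown because NF-kB is known to act at this locus. Shown with them are those of Tnfsf14, the neighbour of Cd70 and Tnfsf9 on the same chromosome, and of Tnfrsf25. Tnfrsf25 is a TNF superfamily receptor gene that was higher in NEMO knockout cells, and the start shown is the one with a match. Each is the 250 bases before the RefSeq transcription start (GRCm38.p6), 5′ to 3′ on the gene's strand. Capitals mark matches on either strand to the kB consensus, the degenerate decamer of NF-kB sites, or to TGANTCA, a pattern of AP-1 sites.
Ltb chr17:35194257-35194506 plus strand: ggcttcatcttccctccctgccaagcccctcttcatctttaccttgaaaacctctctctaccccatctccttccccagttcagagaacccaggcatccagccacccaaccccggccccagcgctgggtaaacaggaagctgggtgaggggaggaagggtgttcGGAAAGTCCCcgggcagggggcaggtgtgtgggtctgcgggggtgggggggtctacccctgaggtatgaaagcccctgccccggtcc
Tnf chr17:35202008-35202257 minus strand: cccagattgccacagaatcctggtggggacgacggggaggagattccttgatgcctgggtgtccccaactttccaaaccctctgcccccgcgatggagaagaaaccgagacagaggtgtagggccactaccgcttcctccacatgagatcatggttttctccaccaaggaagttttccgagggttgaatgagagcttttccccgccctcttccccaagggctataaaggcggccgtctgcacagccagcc
Lta chr17:35205352-35205601 minus strand: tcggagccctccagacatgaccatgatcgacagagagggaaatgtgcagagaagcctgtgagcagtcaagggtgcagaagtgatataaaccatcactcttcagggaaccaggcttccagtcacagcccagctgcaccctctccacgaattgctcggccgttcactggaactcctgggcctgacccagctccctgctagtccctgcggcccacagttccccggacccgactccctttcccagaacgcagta
Tnfsf14 chr17:57194182-57194431 minus strand: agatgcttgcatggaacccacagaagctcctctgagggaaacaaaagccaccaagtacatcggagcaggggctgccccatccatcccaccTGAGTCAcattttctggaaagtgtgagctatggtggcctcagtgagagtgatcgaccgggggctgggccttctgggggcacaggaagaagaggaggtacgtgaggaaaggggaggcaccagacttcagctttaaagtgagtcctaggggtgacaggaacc
Tnfrsf25 chr4:152116093-152116342 plus strand: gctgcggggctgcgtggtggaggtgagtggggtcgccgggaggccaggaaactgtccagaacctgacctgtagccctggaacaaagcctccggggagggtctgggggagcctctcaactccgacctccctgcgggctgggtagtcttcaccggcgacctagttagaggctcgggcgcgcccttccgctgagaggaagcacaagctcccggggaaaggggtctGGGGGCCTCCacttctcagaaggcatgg
Ltb held the kB consensus at bases -87 to -78, Tnfrsf25 held it at -28 to -19 of the start shown but not in the window of its other start, and Tnfsf14 held TGANTCA at -160 to -154. Neither the Tnf nor the Lta window held a match, which says only that these letters are not in those windows. RefSeq windows were at hand for 30 starts of 27 members. The kB consensus was in 4 of these 30 windows and in 1643 of all 32851 mouse promoter windows (5%), and TGANTCA was in 6 of 30 and in 2217 of all windows (6.75%). Besides Ltb and Tnfrsf25, the kB consensus was in the windows of Tnfrsf8 and of a start of Tnfrsf9. Tnfrsf8 was not well above background on any array, and Tnfrsf9 did not pass in NEMO knockout cells. Windows of other members that were higher there, such as Tnfrsf1b, Tnfsf11 and Ltbr, held no kB match. All of these are matches of letters and not evidence of a bound site.

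In NEMO knockout cells most of the family differed from Cre cells, with more members higher than lower. Without nephritis, 15 members were higher and 7 lower of 33 tested (limma, Benjamini-Hochberg adjusted p under 0.05), where 43% of all 14685 genes passed, 21% as higher and 22% as lower. With nephritis, 14 were higher and 6 lower, where 48.3% of all genes passed, 18.8% as higher and 29.6% as lower. In the authors' matrix, the split with nephritis was 15 higher and 3 lower. The median difference of the 33 members was 0.56 without and 0.49 with nephritis, beside -0.06 and -0.14 over all genes. The members that passed in both conditions, 20 in number, had the same direction in both, 14 higher and 6 lower. These comparisons use different arrays of Cre and NEMO cells, but the same slide for all NEMO arrays. NEMO and Cre arrays did not overlap for 24 of the 33 members in each condition. The same held for 67.1% of all genes without and 70.3% with nephritis, so a lack of overlap was common.

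**Figure D1:**
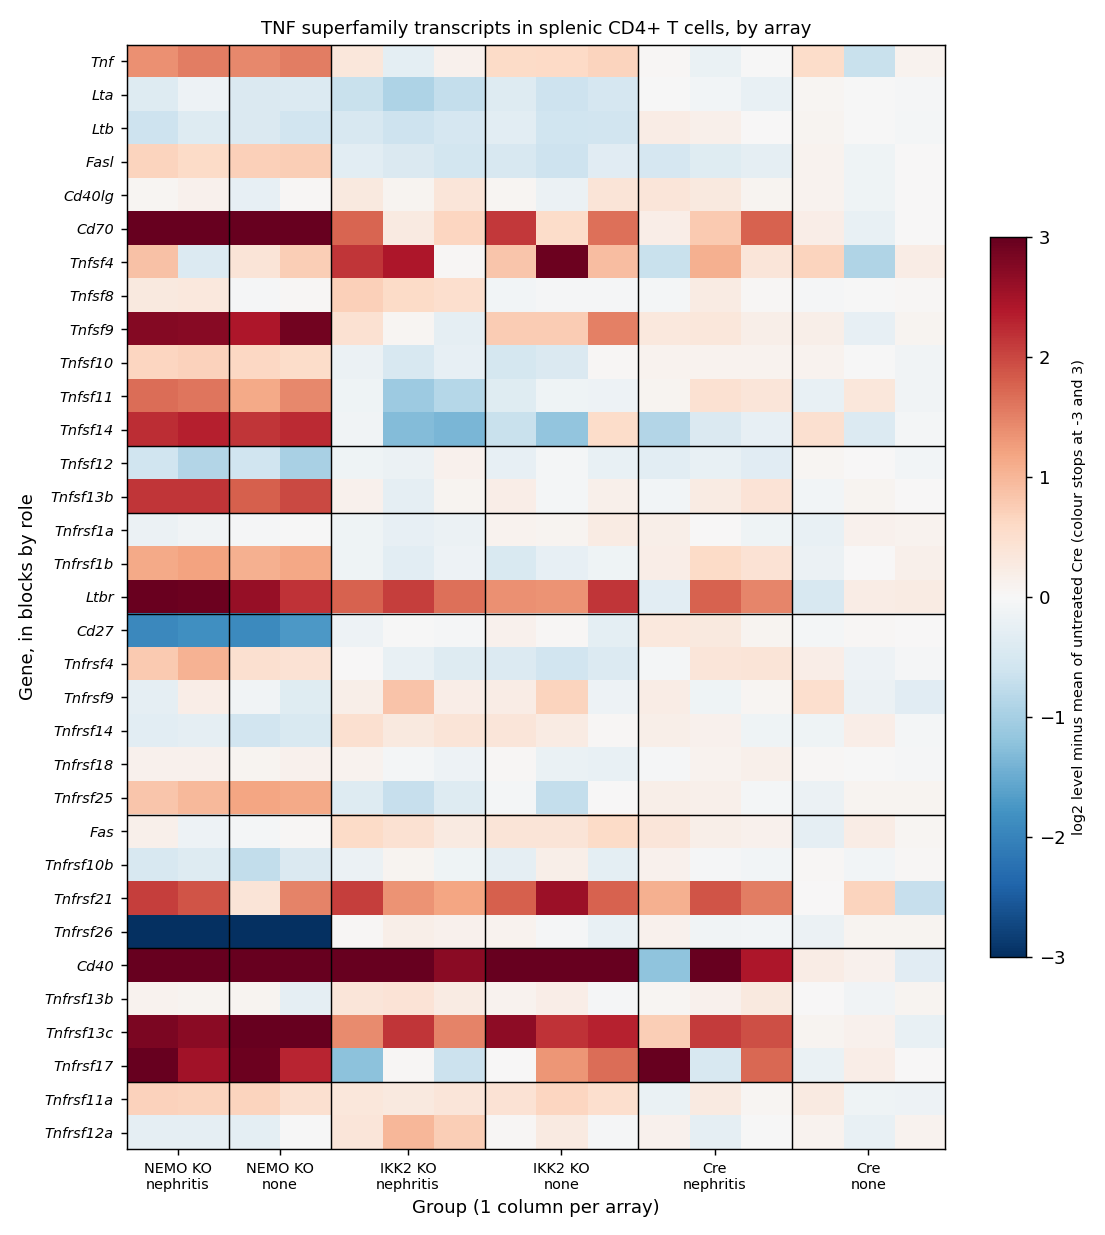
Log2 level of each of the 33 tested members on each of the 16 arrays, minus the mean of the untreated Cre arrays, with members in rows by role and arrays in columns by group; colour stops at -3 and 3. The 4 NEMO columns at the left are deep red for Cd70, Tnfsf9 and Tnfsf14 and blue for Cd27 and Tnfrsf26, and the 3 untreated Cre columns at the right are palest for Cd40 and Tnfrsf13c.

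Among the ligands, 8 of 14 tested were higher and 3 lower in untreated NEMO knockout cells, and 8 were higher and 2 lower with nephritis. Of all genes, 43% and 48.3% passed there, 21% and 18.8% as higher. The 3 ligands that lie side by side on chromosome 17, Tnfsf9 (4-1BB ligand), Cd70 (the ligand of CD27) and Tnfsf14 (LIGHT, which binds HVEM and the lymphotoxin beta receptor), were all higher in both conditions. Tnfsf9 read 0.89 and 1.37 in untreated NEMO knockout arrays, against -1.37, -1.79 and -1.44 in Cre arrays. Under nephritis the values were 1.23 and 1.19 in NEMO knockout arrays, against -1.22, -1.19 and -1.35 in Cre arrays. The NEMO arrays lay clear above every Cre array, by 2.66 (SE 0.25, limma adjusted p = 8.9e-06) and 2.47 (SE 0.25, adjusted p = 1.4e-05), or 6.33-fold and 5.53-fold.

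Tnfsf14 read 3.75 and 3.86 in untreated NEMO knockout arrays, against 2.08, 1.20 and 1.55 in Cre arrays. With nephritis its values were 3.83 and 3.93 in NEMO knockout arrays, against 0.74, 1.18 and 1.36 in Cre arrays. The 4 NEMO values were close to each other, and the Cre values, more widely spread, all lay below them. The differences were 2.19 (SE 0.48, limma adjusted p = 0.0031) and 2.79 (SE 0.48, adjusted p = 0.00059), or 4.57-fold and 6.91-fold.

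Cd70 was seen above background in NEMO knockout arrays alone. It read -3.51 and -3.11 without and -2.59 and -2.61 with nephritis there, whereas no Cre or IKK2 array was well above background. Cd70 was therefore at least 5.82-fold higher without nephritis and at least 6.03-fold higher with it than in Cre arrays, the bound being set by the dimmest signal that counted as well above background on each Cre array, or by the Cd70 signal where that was higher. Because the gene entered the test through the NEMO arrays alone, it had to differ, and no p is read from it, although the counts of members include it. With normexp background correction the differences were 0.28 and 0.49 on the log2 scale, below these bounds.

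Tnf, the founding cytokine of the family, read 2.21 and 2.29 in untreated NEMO knockout arrays, against 1.31, 0.10 and 0.87 in Cre arrays. In nephritis it stood at 2.13 and 2.30 in NEMO knockout arrays, against 0.80, 0.57 and 0.75 in Cre arrays. All NEMO values exceeded all Cre values, although the untreated Cre arrays were spread over more than 1 log2 unit. The differences were 1.49 (SE 0.27, limma adjusted p = 0.001) and 1.51 (SE 0.27, adjusted p = 0.00087), or 2.81-fold and 2.85-fold.

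The lymphotoxin genes that flank Tnf were not higher. Lta, which encodes lymphotoxin alpha, read 1.19 and 1.20 in untreated NEMO knockout arrays, against 1.67, 1.59 and 1.59 in Cre arrays, and fell by 0.42 (SE 0.11, limma adjusted p = 0.0074). With nephritis its levels were 1.24 and 1.46 in NEMO knockout arrays, against 1.60, 1.53 and 1.39 in Cre arrays, where the groups overlapped and the difference of -0.16 did not pass (adjusted p = 0.25). Ltb, which encodes the membrane anchor of the lymphotoxin heterotrimer, read 7.75 and 7.61 in untreated NEMO knockout arrays, against 8.25, 8.17 and 8.11 in Cre arrays. Its levels in nephritis were 7.54 and 7.78 in NEMO knockout arrays, against 8.41, 8.32 and 8.19 in Cre arrays. Ltb was lower on every NEMO array, by 0.49 (SE 0.11, limma adjusted p = 0.0037) and 0.64 (SE 0.11, adjusted p = 0.00062) on the log2 scale. This direction depended on the scaling: the untreated difference was 0.11 after quantile normalisation and 0.06 in the authors' matrix, and the difference with nephritis was -0.13 and -0.14 there, with none of these 4 values passing.

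RANKL, encoded by Tnfsf11, is the T cell ligand known for driving osteoclasts and lymph node development. It read 0.81 and 1.12 in untreated NEMO knockout arrays, against -0.54, 0.01 and -0.44 in Cre arrays. With nephritis it read 1.34 and 1.27 in NEMO knockout arrays, against -0.24, 0.13 and 0.05 in Cre arrays. No NEMO array overlapped with Cre arrays, and the differences were 1.29 (SE 0.25, limma adjusted p = 0.0015) and 1.33 (SE 0.25, adjusted p = 0.0011).

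The death ligands also rose. Fasl, the ligand of the death receptor Fas, read 2.55 and 2.58 in untreated NEMO knockout arrays, against 1.94, 1.70 and 1.85 in Cre arrays, a difference of 0.74 (SE 0.11, limma adjusted p = 0.00026). Under nephritis the values were 2.49 and 2.40 in NEMO knockout arrays, against 1.32, 1.47 and 1.56 in Cre arrays, a difference of 0.99 (SE 0.11, adjusted p = 2.7e-05). Tnfsf10, which encodes TRAIL, was higher by 0.58 and 0.56 (SE 0.15 each, limma adjusted p = 0.0078 and 0.0087). The call for Tnfsf10 was lost without untreated NEMO replicate 1 (0.54, adjusted p = 0.0592) and, with nephritis, without NEMO replicate 2 (0.53, adjusted p = 0.0597). Of 8 CD8 and NK cell markers, 5 were higher and 2 lower in NEMO knockout cells in each condition. Of all genes, 43% passed without and 48.3% with nephritis. The summed level of these markers was 60.7 to 64.0 with nephritis, against 20.4 to 36.9 in Cre arrays, and 42.3 to 62.4 without, against 19.6 to 22.9 in Cre arrays. The brightest of them, Gzma, averaged 5.44 with and 5.08 without nephritis in NEMO knockout arrays and makes up most of the sum there. The mean log2 level of the list, relative to untreated Cre, was 1.15 to 1.19 with nephritis, against -0.07 to 0.69 in Cre arrays. Without nephritis this mean was 0.62 to 1.01, against -0.06 to 0.07 in Cre arrays. The part of such cells in the rise of Fasl and Tnfsf10 was not tested.

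Of the ligands better known from myeloid cells, Tnfsf13b (BAFF, the B cell survival factor) read -2.001 and -1.82 in untreated NEMO knockout arrays, against -3.88, -3.71 and -3.79 in Cre arrays. With nephritis its values were -1.66 and -1.65 in NEMO knockout arrays, against -3.87, -3.53 and -3.39 in Cre arrays. The groups stood far apart, with differences of 1.88 (SE 0.15, limma adjusted p = 3e-06) and 1.95 (SE 0.15, adjusted p = 2.3e-06), and of 0.74 and 0.85 after normexp background correction. Of 12 myeloid markers tested, 10 were higher and 0 lower in untreated NEMO knockout cells and 8 were higher and 0 lower with nephritis. The shares of all genes that passed as higher were 21% and 18.8%. In IKK2 knockout cells without nephritis, 10 of the same 12 markers were higher as well, where 10% of all genes passed as higher. Tnfsf13b was at -3.58, -3.85 and -3.65 there and its difference from Cre of 0.10 did not pass (limma adjusted p = 0.68). Between NEMO and IKK2 knockout cells Tnfsf13b was higher in NEMO by 1.79 without and 2.15 with nephritis (SE 0.15 each, adjusted p = 8.7e-06 and 1.1e-06). Of the myeloid markers, 0 of 12 passed there without nephritis in limma (0 at an unadjusted p under 0.05), and 4 were higher and 0 lower with it. Of all genes, 35.3% and 46.1% passed there. The mean log2 level of these markers relative to untreated Cre was 2.69 to 3.02 in NEMO and 1.49 to 1.94 in IKK2 knockout arrays with nephritis. The part of myeloid cells in the level of Tnfsf13b was not tested.

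Tnfsf12, which encodes TWEAK, fell by 0.78 (SE 0.13, limma adjusted p = 0.00059) and 0.45 (SE 0.13, adjusted p = 0.015) in NEMO knockout cells. A dimmer second probe gave 0.04 and 0.99, so its probes disagreed, and without NEMO replicate 2 with nephritis the difference was -0.31 (adjusted p = 0.162). The remaining ligands did not pass against Cre. Cd40lg, the ligand by which helper T cells activate B cells, differed by -0.10 and -0.15, Tnfsf8 (CD30 ligand) by 0.00 and 0.23, and Tnfsf4 (OX40 ligand), above background on 8 of 16 arrays, by 0.56 and -0.03.

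**Figure D2:**
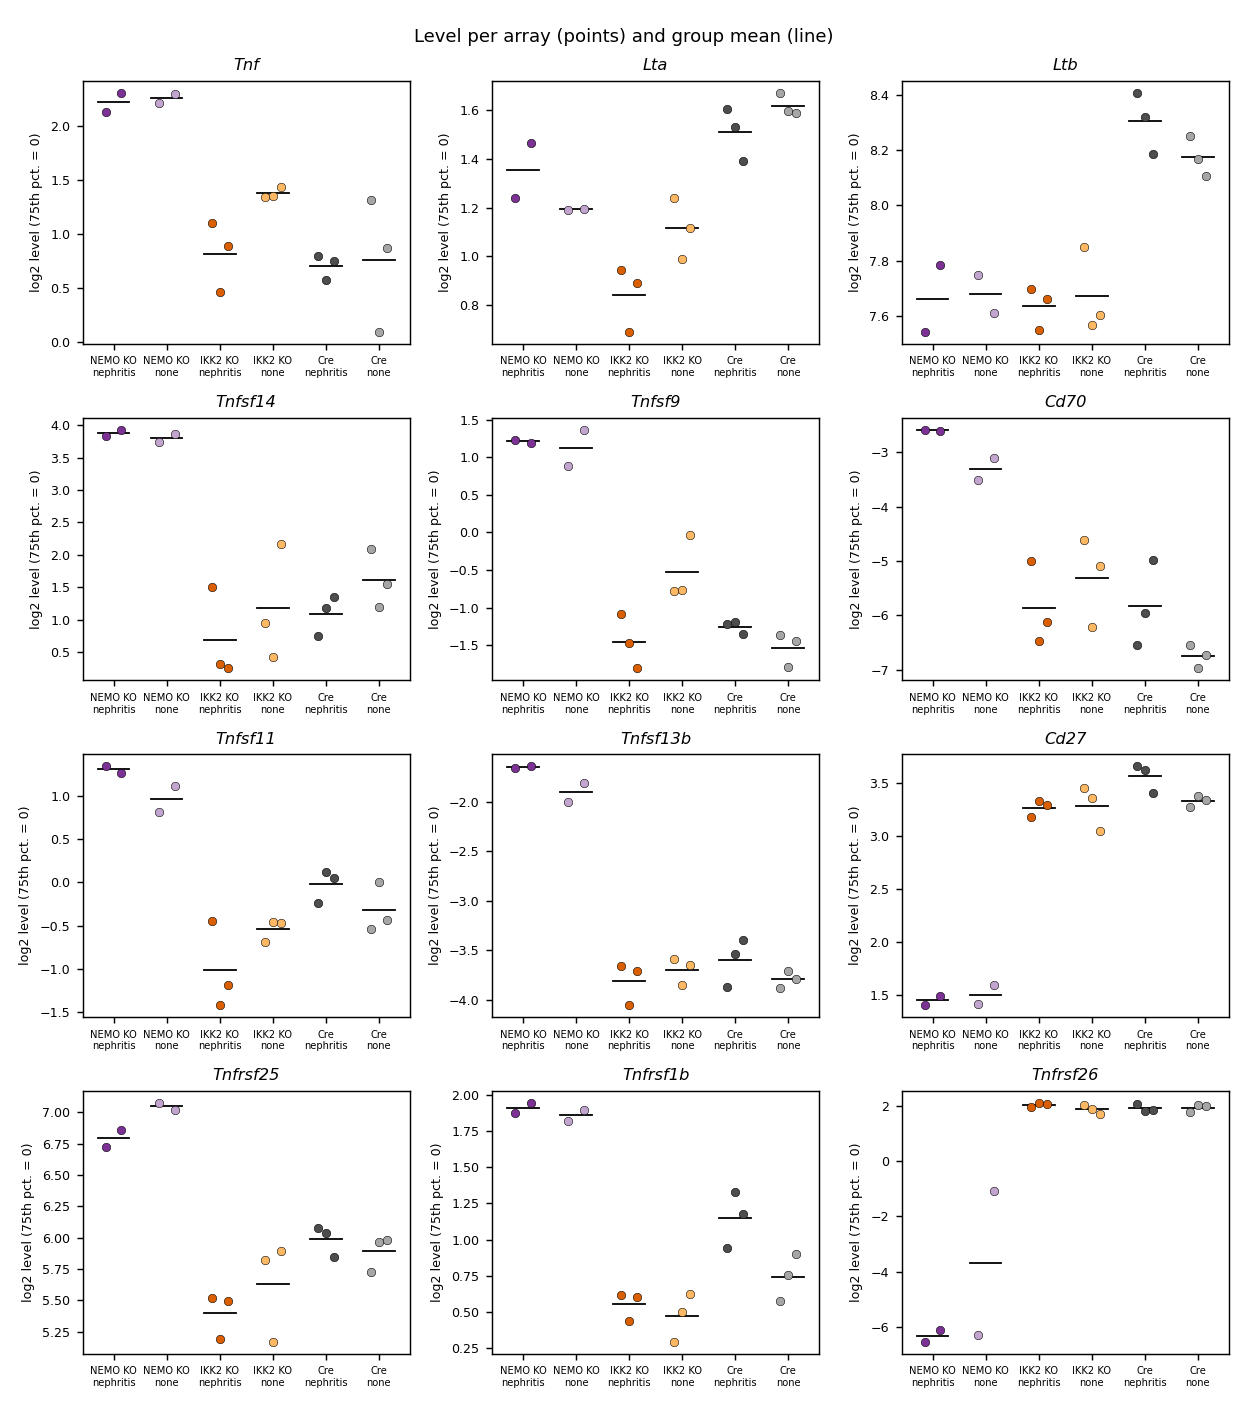
Log2 level relative to the array's 75th percentile (y axis) of 12 members in the 6 groups (x axis), with 1 point per array and a line at each group mean. The NEMO points at the left of each panel lie above all others for Tnf, Tnfsf14, Tnfsf9, Cd70, Tnfsf11, Tnfsf13b, Tnfrsf25 and Tnfrsf1b and below all others for Cd27 and Tnfrsf26, while Ltb is low in NEMO and IKK2 knockout arrays alike.

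Of 19 receptors tested, 7 were higher and 4 lower in untreated NEMO knockout cells, and 6 were higher and 4 lower with nephritis. The shares of all genes that passed were 43% and 48.3%. Tnfrsf26, a gene of the mouse cluster of decoy TRAIL receptors, fell far below its level in the other groups. It read -6.31 and -1.07 in untreated NEMO knockout arrays and -6.54 and -6.10 with nephritis, and was not well above background on 3 of these 4 arrays. On all 12 arrays of Cre and IKK2 knockout cells it read 1.70 to 2.10. With nephritis Tnfrsf26 was at least 272-fold lower in NEMO knockout than in Cre cells (limma adjusted p = 4.9e-05), a bound that holds for this background setting, since normexp correction gave -4.72 on the log2 scale and the authors' matrix -5.41. Without nephritis it fell by 5.61 (SE 0.99, adjusted p = 0.00081), and by 3.53 with normexp correction. Of the 2 untreated NEMO arrays only replicate 2 was well above background, and the difference was -2.99 without replicate 1.

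The genes next to Tnfrsf26 on chromosome 7 in RefSeq order were examined after this value was seen. Tnfrsf22 and Tnfrsf23, decoy TRAIL receptors that follow it directly, fell by 0.71 and 1.99 without nephritis (limma adjusted p = 0.0298 and 8.7e-07) and by 1.13 and 2.15 with it (adjusted p = 0.0021 and 4.5e-07). Of 16 tested genes among the 10 on each side, 1 was higher and 7 lower without nephritis, and 2 were higher and 9 lower with it, where 43% and 48.3% of all genes passed. They ranged between -2.47 and 1.12 without nephritis and between -3.40 and 2.03 with it. Tspan32, which lies 10 genes before, fell by 2.07 and 2.31, and Mrgpre, 5 genes after, by 2.47 and 3.40, while Osbpl5, 3 genes after, was higher by 0.76 and 0.38. In IKK2 knockout cells Tnfrsf26, Tnfrsf22 and Tnfrsf23 differed from untreated Cre by -0.06, 0.06 and 0.00.

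**Figure D3:**
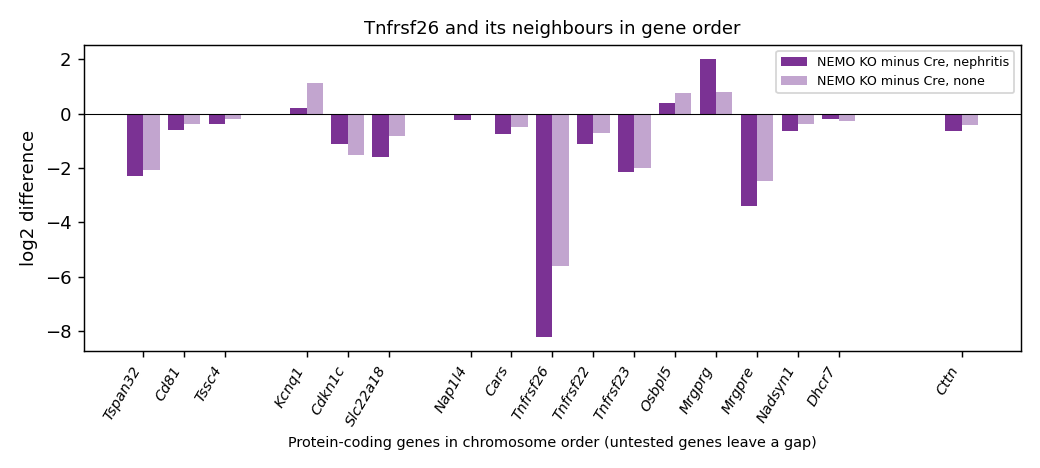
Log2 difference of NEMO knockout minus Cre (y axis) with and without nephritis, as bars for Tnfrsf26 and its tested neighbours in RefSeq gene order (x axis). Tnfrsf26, drawn at its measured means although it was well above background on only 1 of 4 NEMO arrays, reaches furthest below 0, and its neighbours Tnfrsf22 and Tnfrsf23 are lower as well, whereas Osbpl5, Mrgprg and Kcnq1 lie above 0.

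Among the costimulatory receptors of T cells, 2 were higher and 2 lower of 6 tested, in each condition, where 43% and 48.3% of all genes passed. Cd27, the receptor of CD70 that marks naive and central memory T cells, read 1.42 and 1.60 in untreated NEMO knockout arrays, against 3.28, 3.38 and 3.34 in Cre arrays. In nephritis it stood at 1.41 and 1.498 in NEMO knockout arrays, against 3.66, 3.62 and 3.41 in Cre arrays. Every NEMO value was far below every Cre and IKK2 value, by 1.82 (SE 0.12, limma adjusted p = 9.5e-07) and 2.11 (SE 0.12, adjusted p = 3.5e-07) against Cre on the log2 scale. A second probe gave -1.76 and -2.09. Cd27 was thus low on the arrays on which its ligand gene Cd70 was high.

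Tnfrsf25 (death receptor 3, the receptor of TL1A) read 7.07 and 7.02 in untreated NEMO knockout arrays, against 5.73, 5.97 and 5.98 in Cre arrays. With nephritis its levels were 6.73 and 6.86 in NEMO knockout arrays, against 6.08, 6.04 and 5.84 in Cre arrays. The groups did not overlap, and the differences were 1.16 (SE 0.19, limma adjusted p = 0.00047) and 0.81 (SE 0.19, adjusted p = 0.0044). Tnfrsf4, which encodes OX40, was higher by 0.46 (SE 0.16, adjusted p = 0.033) and 0.69 (SE 0.16, adjusted p = 0.0037), but the untreated call was lost in 4 of 5 fits that left out 1 array. With nephritis the call for Tnfrsf4 was lost without NEMO replicate 2 (0.56, adjusted p = 0.0509).

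Tnfrsf14, which encodes HVEM, a receptor of LIGHT, fell by 0.51 (SE 0.13, limma adjusted p = 0.0065) and 0.36 (SE 0.13, adjusted p = 0.034). Without untreated NEMO replicate 1 the fall of Tnfrsf14 was 0.46 and did not pass (-0.46, adjusted p = 0.0582), and with nephritis the call was lost in 4 of 5 fits that left out 1 array. Tnfrsf18 (GITR) and Tnfrsf9 (4-1BB), the receptor of the raised ligand Tnfsf9, did not pass: Tnfrsf18 differed by 0.10 and 0.06 and Tnfrsf9 by -0.23 and -0.09. Of 9 regulatory T cell markers tested, 2 were higher and 1 lower in untreated NEMO knockout cells, where 43% of all genes passed. With nephritis 4 of these markers were higher and 2 lower, where 48.3% of all genes passed. The summed level of the markers was 69.4 to 79.4 in NEMO knockout cells with nephritis, against 35.4 to 42.5 in Cre cells, and 64.4 to 74.3 without, against 31.8 to 34.5 in Cre cells. The brightest of them, Capg, read 5.88 and 5.99 in NEMO knockout arrays with nephritis, against 4.71, 4.83 and 4.82 in Cre arrays, and makes up most of the sum. The mean log2 level of the list overlapped with nephritis, at -0.08 to 0.56 in NEMO knockout and -0.20 to 0.49 in Cre arrays. As Tnfrsf4 and Tnfrsf1b are abundant on regulatory T cells, these values stand beside theirs, and the part of that subset was not tested.

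Of the receptors for TNF itself, Tnfrsf1b (TNF receptor 2, which has no death domain) was higher and Tnfrsf1a (TNF receptor 1, which has one) was not. Tnfrsf1b read 1.82 and 1.89 in untreated NEMO knockout arrays, against 0.58, 0.75 and 0.90 in Cre arrays. Its levels in nephritis were 1.87 and 1.94 in NEMO knockout arrays, against 0.94, 1.33 and 1.18 in Cre arrays. All NEMO values were above all others, by 1.11 (SE 0.13, limma adjusted p = 4.7e-05) and 0.76 (SE 0.13, adjusted p = 0.00069) against Cre. Tnfrsf1a differed by -0.02 and -0.17 and did not pass (adjusted p = 0.88 and 0.23).

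Fas, the receptor of the raised Fasl, differed by -0.01 and -0.22 from Cre and did not pass (limma adjusted p = 0.96 and 0.24). Tnfrsf10b, the mouse TRAIL death receptor, fell by 0.58 (SE 0.15, adjusted p = 0.0073) and 0.45 (SE 0.15, adjusted p = 0.025). Without untreated NEMO replicate 1 the Tnfrsf10b difference was -0.44 (adjusted p = 0.0929), and with nephritis the call was lost in 3 of 5 fits that left out 1 array. Tnfrsf21 (death receptor 6), above background on 6 of 16 arrays, differed by 0.94 and 0.49 and did not pass. Tnfrsf11a, which encodes RANK, the receptor of RANKL, was higher by 0.57 and 0.65 (SE 0.15 each, adjusted p = 0.0082 and 0.0038), in the first case not without NEMO replicate 1 (0.48, adjusted p = 0.0827). Tnfrsf12a, the TWEAK receptor Fn14, differed by -0.15 and -0.22 and did not pass.

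**Figure D4:**
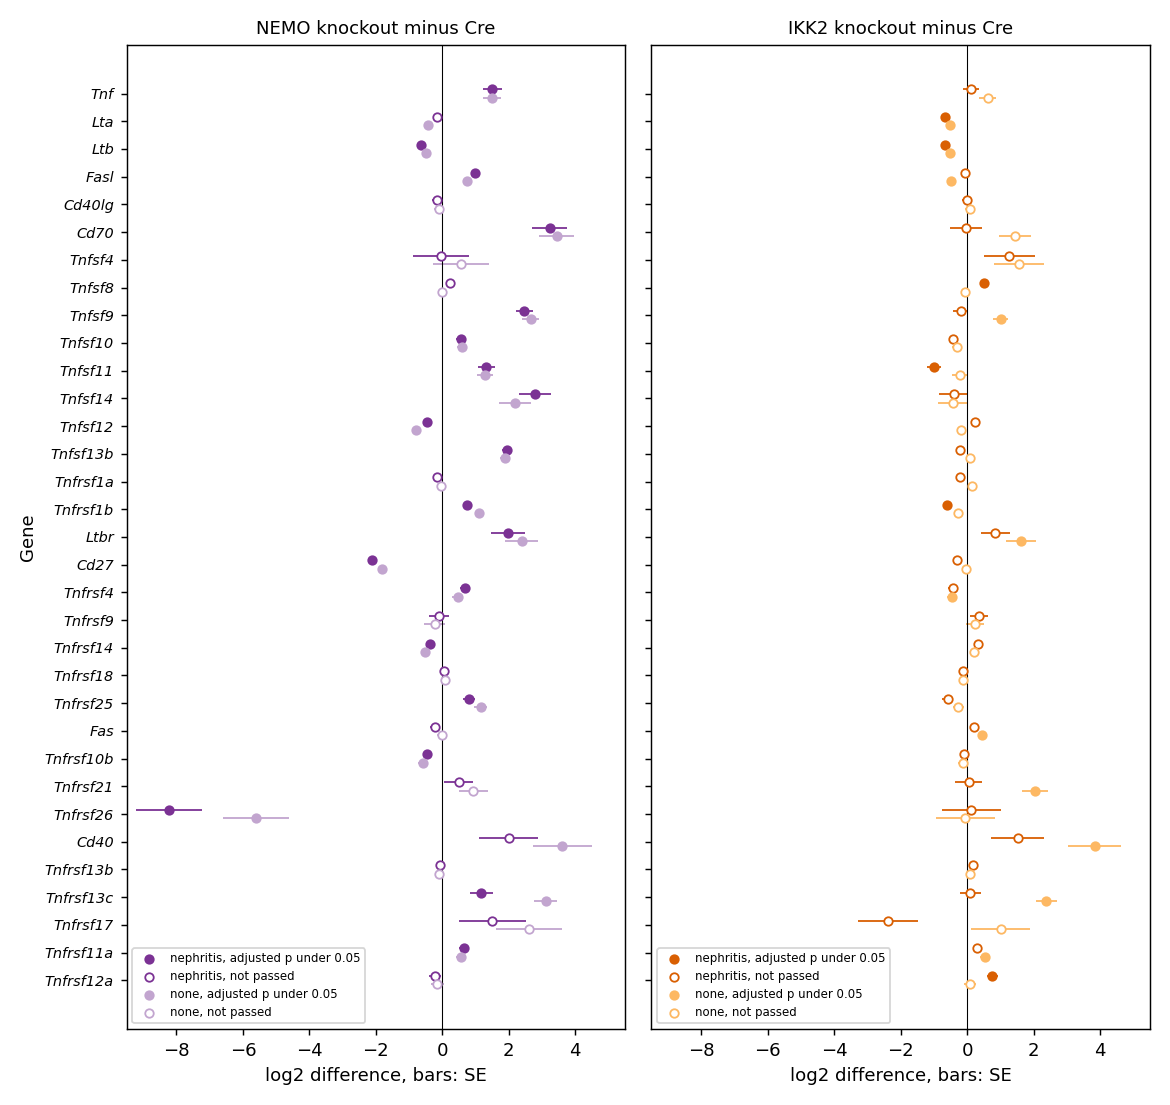
Log2 difference from Cre (x axis, bars are SE) of each tested member (y axis), for NEMO knockout at the left and IKK2 knockout at the right, dark with and light without nephritis, filled where the limma adjusted p was under 0.05. NEMO has 22 filled points without and 20 with nephritis, and IKK2 has 11 and 6, among them Lta and Ltb in both conditions.

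The receptors best known from B cells, plasma cells and myeloid cells are given beside markers of those cells. Cd40, the B cell and antigen-presenting cell receptor of CD40 ligand, read -1.67 and -1.56 in untreated NEMO knockout arrays and -1.26, -1.48 and -1.42 in IKK2 knockout arrays, while it was not well above background on any untreated Cre array. It was at least 12.2-fold higher in NEMO knockout (limma adjusted p = 0.0063) and at least 14.3-fold higher in IKK2 knockout cells (adjusted p = 0.0091) than in Cre cells. With normexp correction these differences were 1.03 and 1.25 on the log2 scale (adjusted p = 0.00122 and 0.00121), below the bounds, and with the slide as a block the IKK2 call was lost (3.81, adjusted p = 0.0952). With nephritis it read -2.01 and -1.60 in NEMO and -2.19, -2.14 and -2.52 in IKK2 knockout arrays, against -6.44, -2.17 and -2.80 in Cre arrays, and neither difference passed (adjusted p = 0.081 and 0.33). Cre replicate 1 with nephritis thus stood far below the other Cre arrays of that group.

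Tnfrsf13c, the BAFF receptor of B cells, was likewise lowest in untreated Cre arrays. It read 0.44 and 0.66 in untreated NEMO knockout arrays and 0.13, -0.40 and -0.26 in IKK2 knockout arrays, against -2.48, -2.43 and -2.77 in Cre arrays. The differences were 3.11 (SE 0.35, limma adjusted p = 3e-05) in NEMO and 2.38 (SE 0.31, adjusted p = 0.001) in IKK2 knockout cells. With nephritis it was 0.27 and 0.14 in NEMO and -1.14, -0.42 and -1.07 in IKK2 knockout arrays, against -1.83, -0.46 and -0.63 in Cre arrays. The NEMO difference with nephritis was 1.18 (SE 0.35, adjusted p = 0.016), or 0.75 without Cre replicate 1 (adjusted p = 0.0285), and it did not pass without either NEMO array (1.11 and 1.24, adjusted p = 0.0832 and 0.0611). A dimmer second probe of Tnfrsf13c, above background on 8 arrays, gave 1.39 in each untreated knockout and 0.01 in NEMO knockout cells with nephritis, and the mean of its probes did not pass there (0.60, adjusted p = 0.126). Of 14 B cell markers, 11 were higher and 0 lower in untreated NEMO and 12 were higher and 0 lower in untreated IKK2 knockout cells. Of all genes, 43% and 14.5% passed there, 21% and 10% as higher. The part of B cells in the differences of Cd40 and Tnfrsf13c was not tested. Tnfrsf13b, which encodes TACI, differed by -0.09 and -0.07 in NEMO and by 0.09 and 0.18 in IKK2 knockout cells and did not pass, though a dimmer second probe gave 0.93 and 1.27 without nephritis in NEMO and IKK2 knockout cells.

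Ltbr, the lymphotoxin beta receptor, is known from stromal and myeloid cells and not from lymphocytes. It read -1.51 and -1.96 in untreated NEMO knockout arrays and -2.76, -2.78 and -1.99 in IKK2 knockout arrays, against -4.62, -3.90 and -3.87 in Cre arrays. The knockout arrays all lay above the Cre arrays, by 2.40 in NEMO (SE 0.50, limma adjusted p = 0.0024) and 1.62 in IKK2 (SE 0.45, adjusted p = 0.033). The IKK2 call was lost in each of 6 fits that left out 1 array. Under nephritis the values were -1.16 and -1.18 in NEMO knockout arrays, against -4.44, -2.36 and -2.65 in Cre arrays, a difference of 1.98 (SE 0.50, adjusted p = 0.0067) that was 1.33 without Cre replicate 1. With normexp correction the untreated differences of Ltbr were 0.91 in NEMO and 0.57 in IKK2 knockout cells (adjusted p = 0.00137 and 0.0429), and 0.91 in NEMO with nephritis. Summed over the tested myeloid markers the level was 82.7 to 84.0 in untreated NEMO, 61.3 to 83.1 in untreated IKK2 and 72.9 to 91.4 in untreated Cre arrays. The mean log2 difference of these markers from untreated Cre was 2.30 to 2.57 in NEMO and 2.17 to 2.44 in IKK2. The sums thus overlapped between the knockouts and Cre, and the means of log2 differences did not reach down to Cre. The part of myeloid cells in the level of Ltbr was not tested.

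Tnfrsf17, which encodes BCMA, the receptor of plasma cells, was above background on 7 of 16 arrays. It read -2.74 and -3.40 in untreated NEMO knockout arrays, and -1.65 and -3.16 with nephritis, while no IKK2 knockout array with nephritis was well above background. With nephritis it was at least 8.13-fold higher in NEMO than in IKK2 knockout cells (limma adjusted p = 0.0078), a call lost without NEMO replicate 1 (3.13 on the log2 scale, adjusted p = 0.0824). With normexp correction the difference was 0.90 on the log2 scale (adjusted p = 0.019), below that bound. It did not pass against Cre in either knockout or condition. Plasma cell markers were summed to 56.1 to 100.4 in NEMO and 27.5 to 33.7 in IKK2 knockout arrays with nephritis, and 6 of 7 passed as higher in NEMO. Of all genes, 46.1% passed there, 19% as higher. The part of plasma cells in the level of Tnfrsf17 was not tested.

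**Figure D5:**
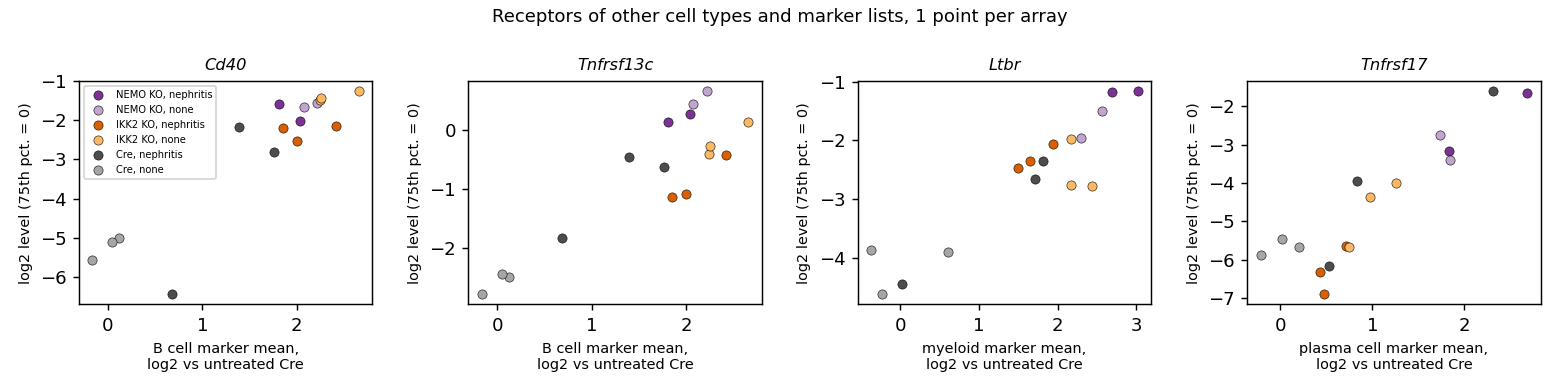
Log2 level of Cd40, Tnfrsf13c, Ltbr and Tnfrsf17 relative to the array's 75th percentile (y axes) against the mean log2 level of B cell, B cell, myeloid and plasma cell markers relative to untreated Cre (x axes), with 1 point per array coloured by group. The 3 untreated Cre arrays sit at the lower left of the Cd40 and Tnfrsf13c panels, and Cre replicate 1 with nephritis lies nearest to them on the marker axis.

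In IKK2 knockout cells fewer members differed from Cre. Without nephritis, 7 were higher and 4 lower of 33, where 14.5% of all genes passed, 10% as higher and 4.51% as lower. After quantile normalisation the split was 7 higher and 2 lower. With nephritis, where all 6 arrays were on slide 1, 2 were higher and 4 lower, where 2.57% of all genes passed, 0.987% as higher and 1.59% as lower. With the 75th percentile taken over probes above background on all arrays, the split with nephritis was 2 and 2. The median over the members was 0.09 without and -0.03 with nephritis, beside 0.05 and -0.03 over all genes. IKK2 and Cre arrays did not overlap for 15 members without and 13 with nephritis, and for 30% and 24.9% of all genes. Lta and Ltb, the lymphotoxin genes, passed in both conditions.

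Lta read 1.24, 0.99 and 1.12 in untreated IKK2 knockout arrays, against the 1.59 to 1.67 of Cre arrays given above. With nephritis its values were 0.94, 0.69 and 0.89 in IKK2 knockout arrays, against 1.39 to 1.60 in Cre arrays. Ltb read 7.85, 7.57 and 7.61 without and 7.70, 7.55 and 7.66 with nephritis. No IKK2 array overlapped with Cre arrays for either gene, and both fell by 0.50 and 0.67 (SE 0.10 each, limma adjusted p = 0.0064 and 0.0051 for Lta and 0.0075 and 0.0061 for Ltb). Without nephritis the fall of Ltb did not pass after quantile normalisation (-0.24, adjusted p = 0.116) or in the authors' matrix (-0.22, adjusted p = 0.177). All Cre and IKK2 arrays with nephritis were on slide 1, so a fit of slide 1 alone is no separate check. By construction it gave the same -0.67 for Lta and Ltb, which did not pass there (limma adjusted p = 0.0756 and 0.0632). Tnf, between them on the chromosome, read 1.34, 1.35 and 1.43 in untreated IKK2 knockout arrays and 1.10, 0.47 and 0.89 with nephritis. Its differences of 0.62 and 0.11 from Cre did not pass (adjusted p = 0.11 and 0.84).

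Without nephritis, Tnfsf9 was higher in IKK2 knockout cells at -0.77, -0.76 and -0.03, all above the Cre arrays, by 1.01 (SE 0.23, limma adjusted p = 0.013). The call was lost without Cre replicate 2 (0.88, adjusted p = 0.0509). Fasl fell by 0.47 (SE 0.10, adjusted p = 0.0097), opposite to NEMO, and read 1.36, 1.21 and 1.49, below every untreated Cre array. Tnfrsf4 fell by 0.46 (SE 0.14, adjusted p = 0.047) and Fas was higher by 0.45 (SE 0.13, adjusted p = 0.041), but leaving out 1 array ended the call in 6 of 6 fits for Tnfrsf4 and 5 of 6 for Fas. Tnfrsf11a was higher by 0.53 (SE 0.13, adjusted p = 0.022), which did not pass in 3 of 6 such fits. Tnfrsf21 was well above background on 2 of 3 IKK2 and no Cre arrays and was at least 2.68-fold higher (adjusted p = 0.007), but its difference was 0.28 after normexp background correction (adjusted p = 0.282). With the slide as a block, 3 members passed, namely Ltb, Tnfrsf13c and Tnfsf9. Within slide 2, which held the 3 Cre arrays and IKK2 replicate 3, Cd40 and Tnfrsf13c passed, a comparison added after the data were seen in which the lone IKK2 array is assumed to vary like the others.

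With nephritis, Tnfsf11 read -0.45, -1.42 and -1.19 in IKK2 knockout arrays, against -0.24, 0.13 and 0.05 in Cre arrays, and fell by 0.996 (SE 0.22, limma adjusted p = 0.041). Tnfrsf1b read 0.62, 0.44 and 0.60 in IKK2 knockout arrays, against 0.94, 1.33 and 1.18 in Cre arrays, and fell by 0.59 (SE 0.12, adjusted p = 0.025). Both genes were low on every IKK2 array, whereas both were high in NEMO knockout cells. Tnfrsf12a read 0.43, 1.05 and 0.81 in IKK2 knockout arrays, against 0.19, -0.21 and 0.03 in Cre arrays, and was higher by 0.76 (SE 0.17, adjusted p = 0.038). Leaving out 1 array ended the call in 5 of 6 fits for Tnfsf11, 5 of 6 for Tnfrsf1b and 4 of 6 for Tnfrsf12a. Tnfsf8 read 3.17, 3.02 and 2.95 in IKK2 knockout arrays, against 2.40, 2.7002 and 2.50 in Cre arrays, and was higher by 0.52 (SE 0.08, adjusted p = 0.0082). Of 9 regulatory T cell markers, 1 was higher and 6 lower in IKK2 knockout cells with nephritis, and their summed level was 32.2 to 35.2, against 35.4 to 42.5 in Cre cells. Of all genes, 2.57% passed there, 1.59% as lower. The part of regulatory T cells in the lower Tnfrsf1b was not tested.

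Set against each other, the 2 knockouts differed in 11 members that were higher and 6 lower in NEMO without nephritis, where 35.3% of all genes passed, 15.4% as higher and 19.9% as lower. With nephritis 14 were higher and 7 lower, where 46.1% of all genes passed, 19% as higher and 27.2% as lower. The chromosome 17 ligands Tnfsf9, Cd70 and Tnfsf14 were higher in NEMO than in IKK2 knockout cells in both conditions. Tnfsf14 differed by 2.63 and 3.198 (SE 0.48 each), Tnfsf9 by 1.65 and 2.67 (SE 0.25 each, limma adjusted p = 0.00039 and 8.3e-06), and Cd70 was at least 2.63-fold and at least 5.92-fold higher. These bounds hold for the main background setting, since under the alternatives Cd70 differed by as little as 0.20 and 0.49 on the log2 scale. Tnfsf11 differed by 1.51 and 2.33 (SE 0.25 each, adjusted p = 0.00069 and 2.2e-05), Fasl by 1.21 and 1.05, Tnfsf10 by 0.89 and 0.98 and Tnfrsf1b by 1.38 and 1.35. Cd27 was lower in NEMO by 1.78 and 1.81 (SE 0.12 each) and Tnfrsf26 was at least 297-fold lower with nephritis (adjusted p = 4.5e-05), or -4.83 on the log2 scale with normexp correction.

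Between the knockouts Ltb passed in neither condition and Lta only with nephritis, and the genes were not tested against each other. Ltb differed by 0.01 and 0.03 and did not pass (SE 0.11 each, limma adjusted p = 0.97 and 0.86). Lta differed by 0.08 without nephritis (adjusted p = 0.60) and was higher in NEMO by 0.51 with it (SE 0.11, adjusted p = 0.0022). The nephritis response of Lta did not differ past the threshold between NEMO and IKK2 knockout cells (0.43, SE 0.15, limma adjusted p = 0.30). The B lineage receptors Cd40 and Tnfrsf13c and the receptor Ltbr did not pass between the untreated knockouts, at -0.23, 0.73 and 0.78 (adjusted p = 0.87, 0.13 and 0.25). There 0 of 14 B cell markers passed in limma either (2 at an unadjusted p under 0.05).

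Nephritis itself was accompanied by few differences in the family. In NEMO knockout cells 0 of 33 members passed in limma (3 at an unadjusted p under 0.05), where 0.402% of all genes did, 0.0545% as higher and 0.347% as lower. In IKK2 knockout cells Tnfsf8, whose product CD30 ligand acts between activated lymphocytes, was higher with nephritis, at 3.17, 3.02 and 2.95, against 2.38, 2.43 and 2.42 without it, a difference of 0.64 (SE 0.08, limma adjusted p = 0.0088), where 0.443% of all genes passed, 0.245% as higher and 0.197% as lower. The arrays with nephritis all lay above those without it, and 18.2% of all genes did not overlap there. Within slide 1 the difference was 0.65 and did not pass (adjusted p = 0.21). In Cre cells Tnfrsf13c was higher by 1.59 (SE 0.31, adjusted p = 0.024), where 4.02% of all genes passed, 2.56% as higher and 1.46% as lower, but Cre arrays with and without nephritis were on different slides. The call for Tnfrsf13c was lost in 4 of 6 fits that left out 1 array, at 1.33 to 1.63, and B cell markers were higher on the same arrays, as given above. Such fits gave 0 to 5 members for nephritis in Cre cells, with 5 when Cre replicate 1 was left out.

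Differences between genotypes in the nephritis response were fitted as interaction contrasts. Between NEMO knockout and Cre cells 0 of 33 members passed (1 at an unadjusted p under 0.05; 0.266% of all genes passed in limma, 0.0136% as higher and 0.252% as lower), and between NEMO and IKK2 knockout cells 0 passed (6 at an unadjusted p under 0.05; 0.252% of all genes, 0.0204% as higher and 0.232% as lower). Between IKK2 knockout and Cre cells Tnfrsf13c passed as lower (-2.29, SE 0.44, limma adjusted p = 0.0399) and Tnfsf8 as higher (0.56, SE 0.11, adjusted p = 0.0451), where 1.13% of all genes passed, 0.3% as higher and 0.831% as lower. Leaving out 1 array ended each of these calls in 10 of 12 fits.

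The family's signalling partners were examined as lists. Of 15 TRAF and cIAP adaptor genes, 1 was higher and 4 lower in untreated NEMO knockout cells and 1 was higher and 6 lower with nephritis, with medians of 0.02 and -0.09. The shares of all genes that passed were 43% and 48.3%. Traf3ip3, an adaptor gene of lymphocytes, fell by 1.02 and 1.26 (limma adjusted p = 5.5e-05 and 1.2e-05), and Traf6, the adaptor shared with Toll-like receptors, by 0.69 and 0.60. Birc3, which encodes cIAP2, fell by 0.51 with nephritis and Tifa was higher by 1.98 (adjusted p = 0.0067 and 0.038). Tifa read -0.06 and -0.06 in NEMO knockout arrays with nephritis, against -3.79, -1.07 and -1.26 in Cre arrays. Cre replicate 1 thus stood far below the other Cre arrays, and the size of the Tifa difference depends on it. In IKK2 knockout cells 1 was higher and 1 lower without nephritis, and 0 were higher and 2 lower with it. Of all genes, 14.5% and 2.57% passed there. Traf3, the brake on NIK, fell there by 0.43 and 0.54 (adjusted p = 0.014 and 0.013).

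Of 19 genes of death receptor signalling, 7 were higher and 4 lower in untreated NEMO knockout cells and 6 were higher and 6 lower with nephritis, with medians of -0.01 and -0.11, beside the same 43% and 48.3% of all genes. Mlkl, the effector of necroptosis, was higher by 0.81 and 0.79, whereas Casp8, the initiator caspase, fell by 0.52 and 0.57. In IKK2 knockout cells 1 was higher and 2 lower without nephritis, and 0 were higher and 2 lower with it. Of all genes, 14.5% and 2.57% passed there. Tnip1, which encodes a partner of A20, fell by 0.54 and 0.61 there, and Tnfaip3, which encodes A20, by 0.73 without nephritis. Of 6 tested genes among 11 further members of the superfamily, 3 were lower and 0 higher in NEMO knockout cells in both conditions, namely Tnfrsf22, Tnfrsf23 and Relt, an orphan receptor gene (-0.60 and -0.79).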

How the data were processed

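Transcript levels were measured on 16 one-colour (Cy3) Agilent arrays, 1 per sample, in 6 groups given by the labels. The authors deposited scanner output, read here as linear spot intensity, from which Agilent Feature Extraction had already subtracted the background. Its version is 10.5 per the submitters' processing notes and newer per the file headers. A matrix of log2 values deposited by the authors served as an alternative, and the sources used here do not give how it was made.

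The processed intensity was taken to log2, the 75th percentile of each array was subtracted, control and outlier spots were left out and spots of a probe were averaged. A gene was represented by its brightest probe well above background on at least 2 arrays. Of 55681 probes, 27235 had 1 gene symbol and 28446 had none here. The share of spots well above background was 48.9% to 59.8%, and the precision is limited by the number of arrays. Group means were fitted to all arrays with limma 3.58.1 in R 4.3.3 (lmFit and eBayes), in 12 contrasts, with Benjamini-Hochberg adjustment over 14685 genes and a threshold of 0.05. P-values are two-sided, and comparisons with the same control group share its arrays. Tables and plots were made with Python 3.11.15, numpy 2.4.6, pandas 2.3.3 and matplotlib 3.10.9. The scripts were tested on simulated data.

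Per-array values are given for the members with the largest differences past the threshold, up to 8 per comparison, and all others by their differences. The members and gene lists were chosen with earlier results of these data known, and the neighbours of Tnfrsf26 after its value was seen. Replicate numbers do not pair the arrays: deviations from the group means correlated at -0.20 to 0.13 across genes for 36 pairs of equal number. A probe's bound uses the higher of the dimmest signal well above background and its own. Gene order and promoter sequences came from RefSeq (GRCm38.p6), and because the file headers name build mm9 these served for order, names and sequence only. Alternatives were normexp background correction, quantile normalisation, another percentile, no filter on dim probes, the authors' matrix, the slide as a block, the replicate block, the compared arrays only, the mean of all probes and leaving out each array. Normexp used the median spot and background signals, because no mean spot signal was in the files. Some genes are not reported here.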

Additional observations from a re-analysis of the deposited data

Results flagged for a closer look

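The difference between the nephritis response of IKK2 knockout and Cre cells passed for Tnfrsf13c and for Tnfsf8 in limma. For Tnfrsf13c, the BAFF receptor gene, it was -2.288 (adjusted p = 0.0399). Its level with nephritis minus none was -0.70 in IKK2 knockout and 1.59 in Cre cells. For Tnfsf8, the CD30 ligand gene, the difference was 0.5645 (adjusted p = 0.0451), with 0.64 in IKK2 knockout and 0.08 in Cre cells. Cre arrays with and without nephritis were on different slides.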

How the results depend on the processing

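Of 22 members called in untreated NEMO knockout against Cre, 14 kept their call under each alternative run, and of 20 with nephritis 12 did. Against Cre, 1 of 11 (Tnfrsf13c) and 0 of 6 did in IKK2 knockout cells. Directions turned in 4 cases. Ltb in untreated NEMO knockout against Cre was 0.1083 after quantile normalisation and 0.0621 in the authors' matrix. Tnfsf12 with nephritis, averaged over its probes, was 0.2689 against Cre and 0.0666 against IKK2, where the second probe's opposite value enters by construction.

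For untreated IKK2 knockout against Cre, 11 members passed, but 3 with the slide as a block, 4 on the compared arrays only and 2 within slide 2. With nephritis 6 passed, but 3 without the filter and 0 on the compared arrays only or within slide 1, where fewer arrays enter the fit. For nephritis in IKK2 knockout 1 passed, but 0 on the compared arrays or slide 1 and 2 with the mean of probes. For nephritis in Cre 1 passed, but 0 with normexp, the slide as a block or the compared arrays. For the response of IKK2 knockout minus Cre 2 passed, but 0 with normexp, without the filter, in the authors' matrix, with the slide as a block or on the compared arrays. Leaving out 1 array gave 17 to 22 and 14 to 21 members for NEMO against Cre without and with nephritis, 7 to 9 (7 without Cre replicate 2 or 3) and 3 to 5 (3 without Cre replicate 3, IKK2 replicate 2 or IKK2 replicate 3) for IKK2 against Cre, and 14 to 17 and 18 to 20 for NEMO against IKK2. It gave 0 to 1, 1 to 1 and 0 to 5 for nephritis in NEMO, IKK2 and Cre (5 without Cre replicate 1), and 0 to 2, 0 to 3 and 0 to 1 for the responses NEMO minus Cre, IKK2 minus Cre and NEMO minus IKK2. Apart from the slide, construction and Tnfsf12, the cause was not tested.

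With the replicate block, 2 members passed for nephritis in Cre and 0 for the response of IKK2 knockout minus Cre. It kept 93 of 101 calls of single members, although the numbers do not pair the arrays. The slide as a block could not be fitted for NEMO against Cre or IKK2. Dim probes (Cd70, Cd40, Ltbr, Tnfrsf17, Tnfrsf21 and Tnfrsf26) have sizes set by the background, and quantile normalisation moved the median of all genes to -0.04 for NEMO against Cre with nephritis, beside -0.14.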
